A study of Homo sapiens with 6 samples.

Results

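RIMS3, CADPS, REEP1, CLGN, SLC1A1, NMNAT2, RNF157, NEBL and PAPPA2 are 9 genes whose reads were much lower in T98G cells that received a hairpin vector against the splicing kinase SRPK1 than in untreated cells. They were picked for those low values and as genes with neuronal, vesicle or membrane roles, although some, such as NEBL, are best known from other settings. The difference from untreated cells is therefore a description here and carries no test. The 9 are among 60483 gene ids in the tables, and all 9 were among the 14732 genes with enough reads to be tested. The rule of choice did not ask for the same genes to be higher or lower in cells that received a vector expressing SRPK1. The choice was made with earlier results of these data known, so it is not shown to be free of those values.

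T98G is an established human glioblastoma cell line. Poly(A) RNA came from 6 libraries: 2 of T98G cells that received nothing (NT), 2 of T98G cells transiently transfected with a pLKO.1 plasmid carrying a short hairpin against SRPK1 (shSRPK1), and 2 of T98G cells transiently transfected with a pcDNA3.1 plasmid carrying the full-length SRPK1 cDNA (oeSRPK1). Transfection used a lipid reagent, and no selection for the plasmid is named, so a library may pool cells with and without it. No library of cells given a control plasmid was used here, so transfection and construct cannot be told apart in either comparison with NT. In such bulk RNA, fewer cells of a kind and less RNA per cell cannot be told apart either. Library numbers follow the labels, as in NT 1 and NT 2. The labels call the 2 libraries of a group replicates without saying that they came from separate cultures, so p-values measure only the spread between these libraries, which may be technical.

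SRPK1 phosphorylates serine/arginine-rich splicing factors. The 9 products have unlike roles. RIMS3 and CADPS act on secretory vesicles before fusion: RIMS3 is a short member of the RIM scaffolds of the presynaptic active zone, and CADPS primes dense-core vesicles. REEP1 bends membranes of the tubular endoplasmic reticulum (ER) and is mutated in a form of hereditary spastic paraplegia, and CLGN (calmegin) is an ER lectin chaperone related to calnexin and best known from male germ cells. SLC1A1 is the neuronal transporter of glutamate and cysteine, NMNAT2 makes NAD in axons and supports their survival, and RNF157 is a brain-enriched ubiquitin ligase related to MGRN1. NEBL encodes nebulette, an actin-binding protein of the nebulin family best known from heart muscle, and PAPPA2 is a secreted protease that cuts proteins binding insulin-like growth factor (IGF).

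The genes share little position: 3 lie on chromosome 1 and the others on 6 different chromosomes. The start regions of 6 of them are shown because they let a reader compare genes that were low together with the hairpin but parted with the expression vector, with 1 pair for each of 3 patterns that were noticed after the values were seen. Each is the reference sequence from 100 bases before to 30 bases after the RefSeq start (GRCh38.p14), 130 bases on the gene's strand. Capitals mark a GC box (GGGCGG) or a CCAAT box (CCAAT) on either strand. All 9 genes matched the RefSeq table, and the 6 are those with a single start there. RIMS3 (chr1:40665653-40665782, minus strand) and RNF157 (chr17:76240464-76240593, minus strand) were low with both plasmids. CADPS (chr3:62875387-62875516, minus strand) and SLC1A1 (chr9:4490368-4490497, plus strand) were low with the hairpin and high with the expression vector. CLGN (chr4:140427619-140427748, minus strand) and PAPPA2 (chr1:176463075-176463204, plus strand) were low with the hairpin and did not pass the test with the expression vector. Their oeSRPK1 values still lay above their NT values, so this last pattern is set apart by the test and not by direction.
RIMS3: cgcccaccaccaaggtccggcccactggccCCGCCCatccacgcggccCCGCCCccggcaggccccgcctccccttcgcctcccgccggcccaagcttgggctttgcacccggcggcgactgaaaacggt
RNF157: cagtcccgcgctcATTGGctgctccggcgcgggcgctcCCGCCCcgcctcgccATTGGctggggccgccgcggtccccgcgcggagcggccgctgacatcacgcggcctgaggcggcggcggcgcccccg
CADPS: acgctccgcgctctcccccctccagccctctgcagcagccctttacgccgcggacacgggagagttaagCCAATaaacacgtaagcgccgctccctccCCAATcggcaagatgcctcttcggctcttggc
SLC1A1: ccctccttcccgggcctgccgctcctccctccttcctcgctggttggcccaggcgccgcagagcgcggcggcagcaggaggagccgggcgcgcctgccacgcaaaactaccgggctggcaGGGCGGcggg
CLGN: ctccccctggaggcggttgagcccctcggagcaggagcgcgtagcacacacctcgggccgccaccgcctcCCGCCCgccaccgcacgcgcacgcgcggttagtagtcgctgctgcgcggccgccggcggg
PAPPA2: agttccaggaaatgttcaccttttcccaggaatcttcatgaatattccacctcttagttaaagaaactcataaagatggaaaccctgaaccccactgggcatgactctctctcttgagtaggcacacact

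The windows differ in base composition. The RIMS3, RNF157, SLC1A1 and CLGN windows are rich in G and C (76.9%, 82.3%, 76.9% and 77.7%) with 15, 24, 15 and 21 CpG dinucleotides, while PAPPA2 has 43.1% G and C and 0 CpG. The median over all 35116 RefSeq promoter windows of that length is 60.0% and 6 CpG. A GC box stands in 5 of the 9 windows (RIMS3, RNF157, SLC1A1, CLGN and NEBL) and in 33.7% of all windows. A CCAAT box stands in 2 (CADPS and RNF157) and in 20.1% of all. Each of the 3 patterns holds windows with a GC box and windows without one. 7 other motifs were searched on both strands and none of the 9 windows held any: TATAAA (5.59% of all windows), TGACGT (4.96%), TGANTCA (3.57%), CACGTG (4.05%), the interferon response element (1.57%), and TTCAGCACC and GGACAGCG (0.154% and 0.729%), the left and right parts of the element bound by REST, a repressor of neuronal genes outside neurons. A match here is a match of letters, and no match says only that these letters are not in this window.

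The libraries differ in depth and in muscle transcripts. Reads counted in genes ranged from 3891549 in oeSRPK1 2 to 22691215 in oeSRPK1 1, and 3 counts, taken as the floor, stood for 0.135 to 0.776 CPM (read counts scaled to a common library size) after TMM scaling. Libraries of a group correlated at 0.992 (NT), 0.975 (shSRPK1) and 0.984 (oeSRPK1) over tested genes. SRPK1 itself stood at 153 and 140 CPM in untreated cells, 113 and 140 CPM with the hairpin and 190 and 168 CPM with the expression vector. Its transcript was not called lower with the hairpin (0.864-fold, 95% interval 0.691 to 1.08) or higher with the expression vector (1.23-fold, 0.980 to 1.53) against NT, although without shSRPK1 2 it was called lower with the hairpin (log2 -0.37, edgeR adjusted p = 0.0208), and without shSRPK1 1, without shSRPK1 2 or in a fit of only both groups higher with the expression vector (adjusted p = 0.0267, 0.0319 and 0.0232). Between the plasmid groups SRPK1 passed the test narrowly (oeSRPK1 over shSRPK1 1.42-fold, 1.13 to 1.78, adjusted p = 0.0377). That call was lost without NT 1, NT 2, oeSRPK1 1 or oeSRPK1 2 (adjusted p = 0.0945, 0.0939, 0.308 and 0.0997), in a fit of only both groups (0.0920) and with a replicate block (0.0609). Summed over 35 striated muscle markers, muscle transcripts made up 70.5 and 73.7 CPM of the NT libraries, 78.2 and 85.9 CPM of shSRPK1, 434 CPM in oeSRPK1 1 and 4031 in oeSRPK1 2, a difference of 9.29 times within the oeSRPK1 pair. TNNT1, a troponin, made up most of the sum in NT and shSRPK1. Without it the sum was 2.72 and 4.31 CPM (NT), 4.30 and 20.2 CPM (shSRPK1) and 326 and 3911 CPM (oeSRPK1), so shSRPK1 2 also held muscle reads that shSRPK1 1 lacked, such as MYH7 (0 and 61 reads) and ACTA1 (1 and 37 reads).

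Many neuron markers were absent or near 0 in these cells, but not all. Of 24 neuron markers, DCX, NEFL, NEFM, NEFH, INA and GAD2 had no read in any library, RBFOX3, ELAVL3, ELAVL4 and GAP43 had at most 2 reads in a library, and 11 reached the test. The summed level of the list was 706 and 794 CPM (NT), 1055 and 760 CPM (shSRPK1) and 849 and 792 CPM (oeSRPK1), and most of it was ENO2 and UCHL1, which are not limited to neurons. Without these 2 the sum was 76.2 and 72.7 CPM (NT), 57.3 and 105 CPM (shSRPK1) and 49.4 and 47.0 CPM (oeSRPK1), most of it from MAP2, a microtubule protein of dendrites (491 and 606 reads in NT, a mean of 14.9 TPM), and SNAP25, a SNARE of the nerve terminal (147 and 211 reads, 16.6 TPM). None of the 11 tested markers was called in shSRPK1 against NT by edgeR. At an unadjusted p under 0.05 stood 3 of them, beside 4237 of all 14732 tested genes. The markers of the line were abundant for CD44 (2529 and 2705 CPM in NT), VIM (1827 and 2117) and FN1 (1126 and 1151), while SOX2 and S100B had 0 reads in every library and GFAP 1 read in all. The 9 genes are therefore called by their names below and not by a cell type.

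In untreated cells the 9 genes span a wide range of levels. Per length, as TPM (reads per kilobase of merged exons, scaled to a common total), the means of the NT pair were 104 for CLGN, 36.3 for SLC1A1, 16.6 for RIMS3, 6.11 for NMNAT2, 4.01 for RNF157, 2.6 for REEP1, 0.8 for PAPPA2, 0.707 for CADPS and 0.695 for NEBL. RNF157 (5.25 and 2.77 TPM) nearly met its neighbours on both sides, NMNAT2 (6.91 and 5.30) and REEP1 (2.68 and 2.51), while NMNAT2 and REEP1 lay well apart. CADPS (0.738 and 0.676) and NEBL (0.627 and 0.763) overlapped, and PAPPA2 (0.818 and 0.783) lay just above both. CLGN stood at the 89.3rd percentile of 12323 tested protein-coding genes and SLC1A1 at the 66.9th, around a median of 20.6 TPM, and the other 7 lay below that median. All 9 genes are longer on the chromosome than the median tested protein-coding gene (33.6 kb), from 39.5 kb for CLGN to 477 kb for CADPS.

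**Figure D1:**
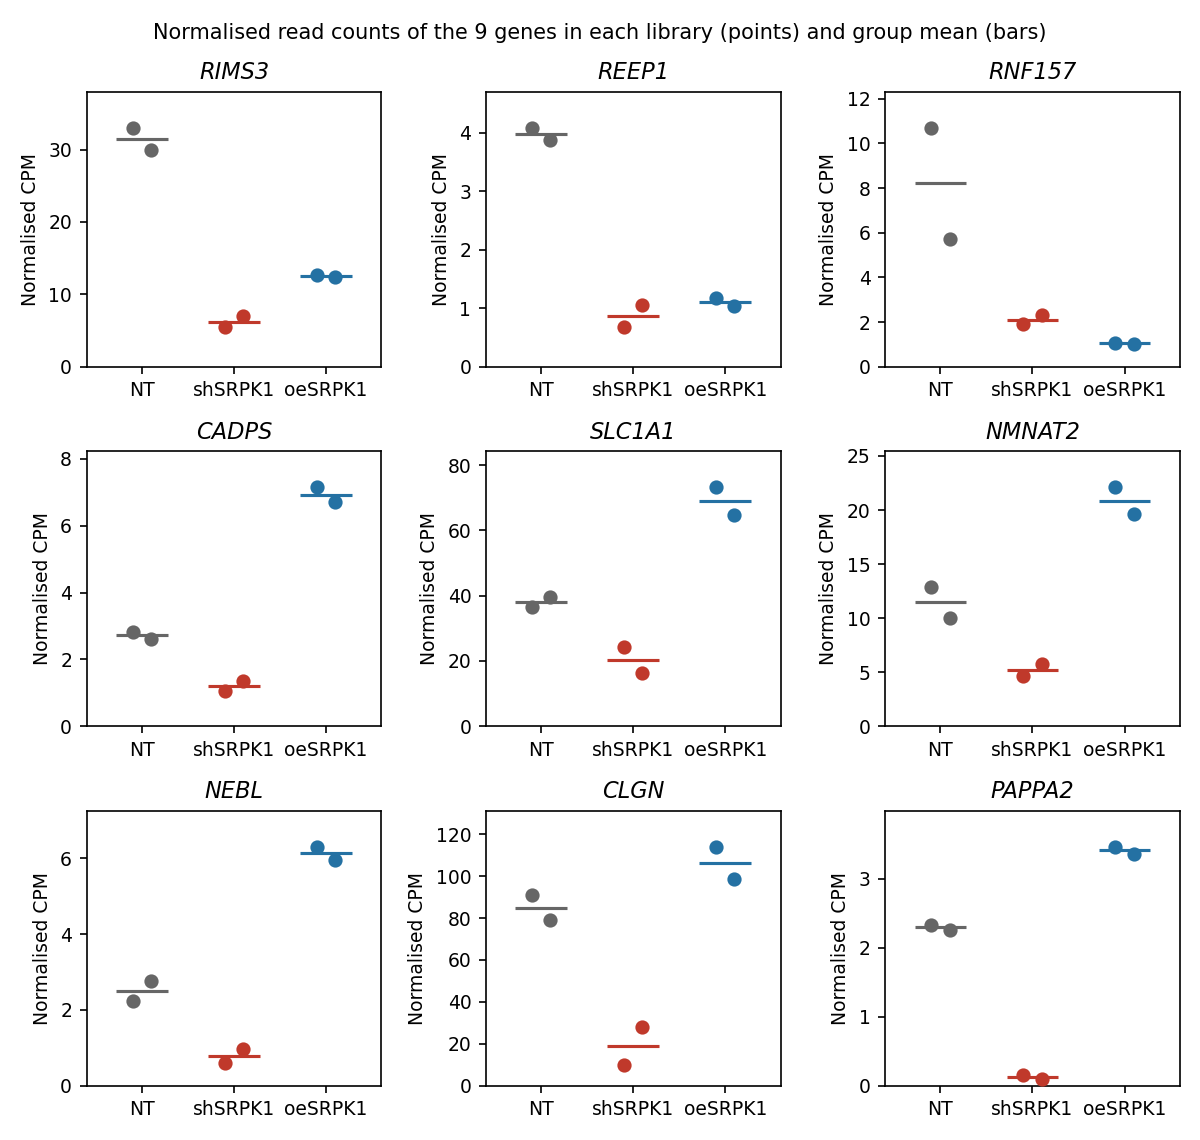
Normalised CPM (vertical axes, each from 0) of the 9 genes in the 2 libraries of NT, shSRPK1 and oeSRPK1; points are libraries and bars are group means. Both shSRPK1 points lie under both NT points in every panel, by the choice of the genes, while the oeSRPK1 points lie under NT for RIMS3, REEP1 and RNF157 and over NT for the other 6.

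All 9 genes were lower in both shSRPK1 libraries than in both NT libraries, which the choice fixes. The log2 differences of shSRPK1 from NT ran from -0.91 (SLC1A1) to -4.08 (PAPPA2) with a median of -1.96, beside 0.01 over all tested genes. In that comparison edgeR called 3.75% of tested genes lower and 5.43% higher at an adjusted p under 0.05, and since the genes were chosen on it nothing is read from their own count of 9. With the expression vector the 9 parted. Against NT, 4 of 9 were called higher in oeSRPK1 (CADPS, SLC1A1, NMNAT2 and NEBL), where 11.2% of tested genes were, and 3 of 9 were called lower (RIMS3, REEP1 and RNF157), where 9.45% were. CLGN and PAPPA2 were not called. The median of the 9 was 0.58, beside 0.00 over all tested genes. So 4 of the 9 were higher than NT in oeSRPK1 and lower than NT in shSRPK1. Each of these 4 calls was lost when some single libraries were left out, as given for each gene below. The comparison of oeSRPK1 with NT shares the NT libraries with the one that chose the genes. High NT values helped a gene to be chosen, so the choice favours lower calls in oeSRPK1 against NT. The spread of each gene is estimated over all 6 libraries, including those that chose the genes. Choosing clear falls may therefore also ease calls in either direction. The counts of higher and lower calls, and the p-values of the lower calls given below, are therefore a description.

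Set directly against shSRPK1, 7 of 9 were called higher in oeSRPK1 by edgeR, where 11.5% of tested genes were, and REEP1 and RNF157 were not called. The shSRPK1 libraries of this comparison are the ones whose low values chose the genes, so higher values in oeSRPK1 are partly fixed by the choice. The count and the p-values against shSRPK1 given below are therefore a description, and nothing is read from them.

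**Figure D2:**
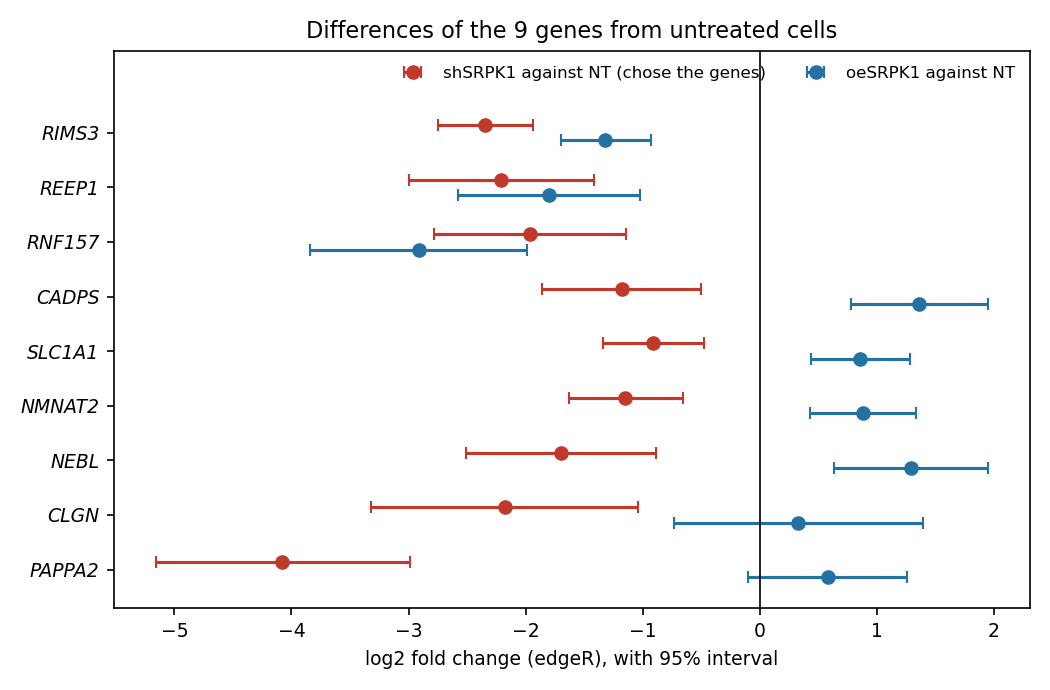
Log2 fold changes of the 9 genes from NT (horizontal axis) with 95% intervals from the edgeR fit, for shSRPK1 (the comparison that chose the genes, shown as a description) and oeSRPK1. The oeSRPK1 points run from -2.91 (RNF157) to 1.36 (CADPS), and the intervals of CLGN and PAPPA2 cross 0.

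The vesicle genes went opposite ways with the expression vector. RIMS3 (chr1:40620679-40665657, minus strand, GENCODE 29 on GRCh38) had 340 and 423 reads (NT), 72 and 73 reads (shSRPK1) and 283 and 48 reads (oeSRPK1), or 33.0 and 29.9 CPM, 5.44 and 6.98 CPM, and 12.7 and 12.4 CPM. The 3 groups did not overlap, with oeSRPK1 between the others. RIMS3 was 5.08-fold lower in shSRPK1 than in NT (95% interval 3.85 to 6.71). In oeSRPK1 it fell 2.49-fold from NT (1.90 to 3.25, log2 -1.32 ± 0.17 SE, edgeR adjusted p = 0.00256) and was 2.04-fold above shSRPK1 (1.53 to 2.73, adjusted p = 0.00845). Both calls were lost without oeSRPK1 1, the deeper library of its pair (adjusted p = 0.0625 and 0.131).

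CADPS (chr3:62398346-62875389, minus strand) was scarce, at 29 and 37 reads (NT), 14 and 14 reads (shSRPK1) and 159 and 26 reads (oeSRPK1). These are 2.82 and 2.61 CPM, 1.06 and 1.34 CPM, and 7.15 and 6.72 CPM, so oeSRPK1 was highest and shSRPK1 lowest in every pair of libraries. CADPS was 2.27-fold lower in shSRPK1 than in NT (1.41 to 3.64). In oeSRPK1 it rose 2.57-fold over NT (1.71 to 3.87, log2 1.36 ± 0.25, edgeR adjusted p = 0.01) and 5.84-fold over shSRPK1 (3.72 to 9.16, adjusted p = 0.00218). The call against NT was lost without NT 1, NT 2 or oeSRPK1 1 (adjusted p = 0.101, 0.112 and 0.143), and that against shSRPK1 without oeSRPK1 1 (0.0587).

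The relatives of this pair were at other levels. RIMS3 was the most abundant RIM gene in T98G cells: RIMS1 and RIMS4 had at most 3 reads in any library, and RIMS2 stood at 0.305 TPM in NT, 0.279 in shSRPK1 and 0.638 in oeSRPK1, with neither comparison with NT called. CADPS2, the close relative of CADPS, was more abundant than CADPS in each group (8.26, 6.41 and 8.27 TPM) and was not called either (shSRPK1 over NT 0.835-fold, 0.547 to 1.28; oeSRPK1 over NT 0.929-fold, 0.601 to 1.44).

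Of the ER genes, REEP1 (chr2:86213993-86338083, minus strand) had 42 and 55 reads (NT), 9 and 11 reads (shSRPK1) and 26 and 4 reads (oeSRPK1). In CPM these are 4.08 and 3.88, 0.680 and 1.05, and 1.17 and 1.03, so both plasmid groups lay far under NT and overlapped each other. REEP1 was 4.63-fold lower in shSRPK1 than in NT (2.68 to 8.00). It fell 3.48-fold in oeSRPK1 (2.02 to 5.98, log2 -1.80 ± 0.34, edgeR adjusted p = 0.0105). The difference between the plasmid groups did not pass the test (oeSRPK1 over shSRPK1 1.33-fold, 0.705 to 2.51, adjusted p = 0.480). The call against NT was lost without NT 1, NT 2, oeSRPK1 1 or oeSRPK1 2 (adjusted p = 0.101, 0.0920, 0.144 and 0.0545).

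REEP1 was the scarcest REEP gene in untreated cells. In NT, REEP5 had 140 TPM, REEP4 50, REEP3 45, REEP2 8.18 and REEP6 7.42, against 2.6 for REEP1. REEP5, a widely expressed ER-tubule protein, rose 1.44-fold in oeSRPK1 over NT (1.21 to 1.71, edgeR adjusted p = 0.0152). REEP2, a relative best known from neurons, had 8.18, 5.05 and 5.08 TPM in NT, shSRPK1 and oeSRPK1 and did not pass the test against NT with either plasmid (adjusted p = 0.172 and 0.0674).

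CLGN (chr4:140388455-140427968, minus strand) was the most abundant of the 9 and the least even within a group. It had 935 and 1120 reads (NT), 132 and 292 reads (shSRPK1) and 2531 and 382 reads (oeSRPK1), or 90.8 and 79.1 CPM, 9.97 and 27.9 CPM, and 114 and 98.7 CPM. The shSRPK1 libraries differed by 2.80 times, more than for any other of the 9 genes in any group, yet both lay under every other library. CLGN was 4.53-fold lower in shSRPK1 than in NT (2.06 to 9.98, log2 -2.18), and this size depended on the hairpin library: the log2 difference was -1.60 without shSRPK1 1 and -3.08 without shSRPK1 2. In oeSRPK1 it did not pass the test against NT (1.26-fold, 0.604 to 2.62, edgeR adjusted p = 0.623), although both oeSRPK1 libraries were above both NT libraries. It was called higher there without shSRPK1 1, without shSRPK1 2 or in a fit of only NT and oeSRPK1 (adjusted p = 0.0149, 0.0182 and 0.0148), where the uneven shSRPK1 pair no longer enters the spread. Against shSRPK1 it was 5.70-fold higher in oeSRPK1 (2.57 to 12.7, log2 2.51, adjusted p = 0.0189), with a log2 difference of 1.91 without shSRPK1 1 and 3.39 without shSRPK1 2, a call lost without NT 1 (0.0512), without oeSRPK1 1 (0.0930) or with no filter on low genes (0.125).

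CLGN was scarce beside its relatives. Calnexin (CANX) had 1099, 948 and 1536 TPM in NT, shSRPK1 and oeSRPK1, and calreticulin (CALR), the soluble lectin chaperone of the ER, 2131, 3614 and 1840. CALR was called higher in shSRPK1 than in NT (1.83-fold, 1.32 to 2.53, edgeR adjusted p = 0.0371), the direction opposite to CLGN, and CANX was not called against NT with either plasmid. CALR3, a germ-cell calreticulin, had 0 reads in all 6 libraries.

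SLC1A1 (chr9:4490444-4587469, plus strand) had 377 and 562 reads (NT), 320 and 171 reads (shSRPK1) and 1628 and 250 reads (oeSRPK1). In CPM these are 36.6 and 39.7, 24.2 and 16.4, and 73.2 and 64.6, and the 3 groups did not overlap. SLC1A1 was 1.88-fold lower in shSRPK1 than in NT (1.39 to 2.53), the smallest difference of the 9. It rose 1.81-fold in oeSRPK1 over NT (1.36 to 2.42, log2 0.86 ± 0.18, edgeR adjusted p = 0.0157) and 3.40-fold over shSRPK1 (2.52 to 4.6, adjusted p = 0.00189). Against NT the call was lost without NT 1, NT 2, oeSRPK1 1 or oeSRPK1 2 (adjusted p = 0.150, 0.110, 0.188 and 0.0672), and against shSRPK1 without oeSRPK1 1 (0.0528).

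SLC1A1 was the most abundant glutamate transporter of its family. The glial glutamate transporters were low: SLC1A3 had 2.37, 1.72 and 0.807 TPM in NT, shSRPK1 and oeSRPK1 and SLC1A2 0.0876 TPM in NT, against 36.3, 17.9 and 67.4 for SLC1A1. SLC1A3 fell 1.34 on the log2 scale in oeSRPK1 against NT (SE 0.36, edgeR adjusted p = 0.0339), while SLC1A1 rose. SLC1A3 had 44 and 50 reads in NT and 40 and 3 reads in oeSRPK1 (4.27 and 3.53, and 1.80 and 0.776 CPM). Its value in oeSRPK1 2 is thus at the floor. The neutral amino acid transporters of the family were SLC1A5 (638, 452 and 547 TPM) and SLC1A4 (30.1, 15.4 and 34.6). Neither was called against NT, and their shSRPK1 libraries differed widely, SLC1A5 at 250 and 605 CPM and SLC1A4 at 18.7 and 41.7 CPM.

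NMNAT2 (chr1:183248237-183418602, minus strand) had 133 and 142 reads (NT), 61 and 60 reads (shSRPK1) and 491 and 76 reads (oeSRPK1), or 12.9 and 10.0 CPM, 4.61 and 5.74 CPM, and 22.1 and 19.6 CPM. The groups did not overlap, and oeSRPK1 was highest. NMNAT2 was 2.22-fold lower in shSRPK1 than in NT (1.58 to 3.10). It rose 1.84-fold in oeSRPK1 over NT (1.35 to 2.52, log2 0.88 ± 0.19, edgeR adjusted p = 0.0182) and 4.09-fold over shSRPK1 (2.93 to 5.71, adjusted p = 0.00176). The call against NT was lost without NT 1, NT 2, oeSRPK1 1 or oeSRPK1 2 (adjusted p = 0.0886, 0.175, 0.211 and 0.0706), and that against shSRPK1 without oeSRPK1 1 (0.0528). Its nuclear relative NMNAT1 had 7.94, 5.42 and 5.21 TPM in NT, shSRPK1 and oeSRPK1, against 6.11, 2.55 and 11.4 for NMNAT2. NMNAT1 was called lower in oeSRPK1 than in NT (0.631-fold, 0.465 to 0.855, adjusted p = 0.0432), a call lost without NT 1, NT 2, oeSRPK1 1 or oeSRPK1 2 (adjusted p = 0.227, 0.215, 0.282 and 0.111), with the DESeq2 test (0.117) and with a replicate block (0.0669). The mitochondrial NMNAT3 had 0 reads.

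RNF157 (chr17:76142453-76240373, minus strand) was lowest with the expression vector. It had 110 and 81 reads (NT), 25 and 24 reads (shSRPK1) and 24 and 4 reads (oeSRPK1), or 10.7 and 5.72 CPM, 1.89 and 2.30 CPM, and 1.08 and 1.03 CPM. The NT libraries differed by 1.87 times, and both lay above all 4 libraries of plasmid-treated cells. RNF157 was 3.89-fold lower in shSRPK1 than in NT (2.21 to 6.85). It fell 7.54-fold in oeSRPK1 (3.96 to 14.3, log2 -2.91 ± 0.40, edgeR adjusted p = 0.00337), a call lost without oeSRPK1 1 (adjusted p = 0.106). The plasmid groups did not overlap, but their difference did not pass the test (oeSRPK1 over shSRPK1 0.516-fold, 0.255 to 1.04, adjusted p = 0.153). The antisense gene RNF157-AS1 overlaps 360 bp of its exons and had 0 reads. MGRN1, the closest relative, had 18.1, 20.1 and 21.5 TPM and was not called.

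NEBL (chr10:20779973-21174187, minus strand) had 23 and 39 reads (NT), 8 and 10 reads (shSRPK1) and 140 and 23 reads (oeSRPK1). In CPM these are 2.23 and 2.75, 0.604 and 0.956, and 6.30 and 5.95, and the groups did not overlap. NEBL was 3.25-fold lower in shSRPK1 than in NT (1.85 to 5.70). It rose 2.45-fold in oeSRPK1 over NT (1.55 to 3.86, log2 1.29 ± 0.29, edgeR adjusted p = 0.0183) and 7.96-fold over shSRPK1 (4.66 to 13.6, adjusted p = 0.00225). The call against NT was lost without NT 1, NT 2, oeSRPK1 1 or oeSRPK1 2 (adjusted p = 0.172, 0.116, 0.193 and 0.0701), and that against shSRPK1 without oeSRPK1 1 (0.0592). NEBL is expressed in heart, and muscle transcripts were high in the same group. Nebulin itself (NEB) had 456 and 1008 reads in oeSRPK1, or 20.5 and 261 CPM, and NRAP 2.16 and 20.9 CPM. Both were higher in oeSRPK1 2, as was the muscle list as a whole. NEBL stood at 6.30 and 5.95 CPM in the same 2 libraries. Whether reads of NEBL belong to the muscle signal was not tested. LASP1, the widely expressed member of the family, had 141, 138 and 199 TPM in NT, shSRPK1 and oeSRPK1 and was not called against NT. NEBL-AS1 overlaps 94 bp of the exons of NEBL and had 0 reads.

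PAPPA2 (chr1:176463171-176845605, plus strand) was almost without reads in the shSRPK1 libraries. It had 24 and 32 reads (NT), 2 and 1 reads (shSRPK1) and 77 and 13 reads (oeSRPK1), or 2.33 and 2.26 CPM, 0.151 and 0.0956 CPM, and 3.46 and 3.36 CPM. With 3 reads in all in shSRPK1, the ratio is best read with its counting interval: 18.1-fold lower than NT (5.88 to 90.3), an interval that covers counting error only. In oeSRPK1 both libraries were above both NT libraries, but the difference did not pass the test (1.49-fold, 0.932 to 2.39, edgeR adjusted p = 0.200). PAPPA2 was called higher in oeSRPK1 than in shSRPK1 (adjusted p = 0.00163), 27.2-fold by the ratio of reads (9.03 to 135). Its paralogue PAPPA had 3.84, 3.04 and 3.87 TPM in NT, shSRPK1 and oeSRPK1, and its shSRPK1 libraries lay on both sides of NT (4.83 and 15.1 CPM against 12.9 and 10.4), with no call.

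**Figure D3:**
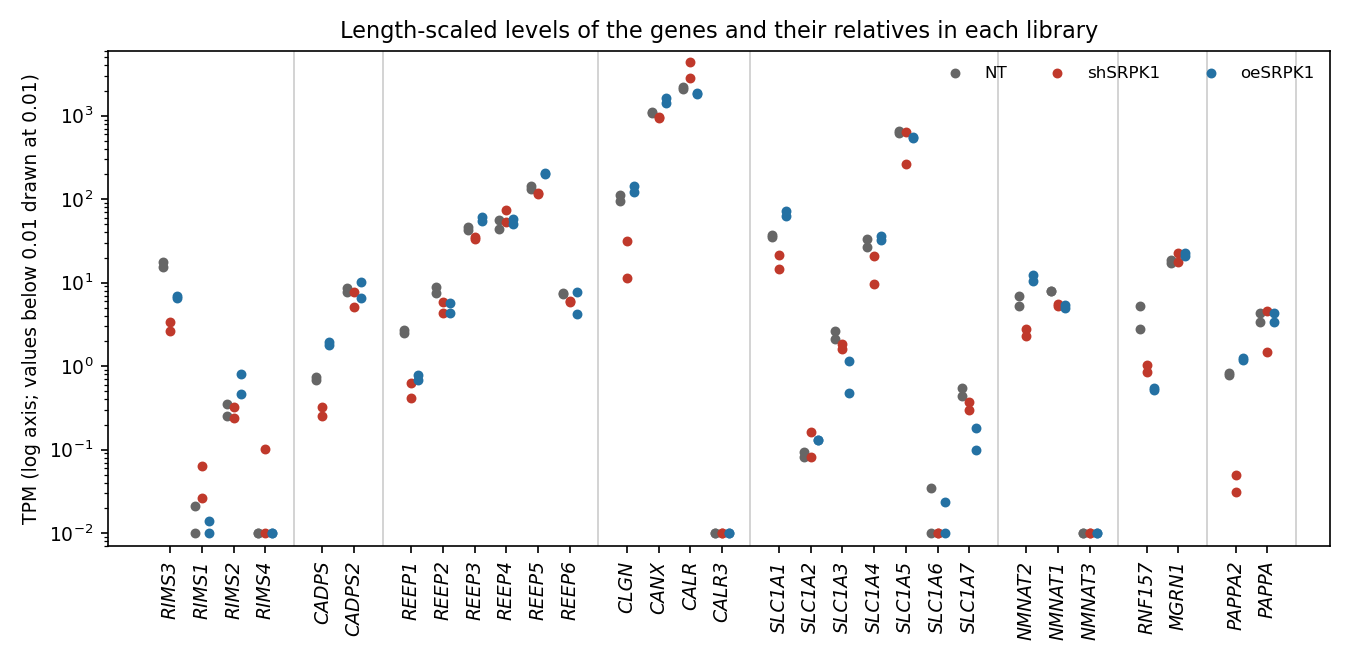
TPM (log axis, values below 0.01 drawn at 0.01) of 8 of the 9 genes, each at the left of its family, and of their relatives in each library of NT, shSRPK1 and oeSRPK1; vertical lines part the families. RIMS3 and SLC1A1 stand above the other RIM genes and the other glutamate transporters, while CADPS, REEP1 and CLGN stand under relatives that are more abundant.

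The profiles of the 9 genes were also read as correlations of log2 CPM, a description over 6 libraries that fall into 3 groups. Among the 6 genes not called lower in oeSRPK1 against NT, Pearson's r lay between 0.78 and 0.99. RNF157 had r between -0.34 and 0.11 with those 6, and RIMS3 and REEP1 between 0.11 and 0.75. RIMS3 and REEP1 correlated at 0.95 with each other. The genes were chosen by their shSRPK1 values and sorted here by their oeSRPK1 values, which are the values correlated. These r values are therefore partly fixed by the choice and the sorting, and nothing is read from them. Outside the 9, the genes whose log2 CPM was closest to the mean standardised profile of the 9, of 12490 ranked, were LAPTM4A (r = 0.997), TANGO2 (0.996), LMBRD2 (0.995), MCUR1 (0.993) and PDZD8 (0.993). LAPTM4A, a lysosomal membrane protein, had 297 and 285 CPM (NT), 222 and 227 CPM (shSRPK1) and 288 and 288 CPM (oeSRPK1). MCUR1, a mitochondrial calcium uptake regulator, had 44.5 and 40.3, 25.6 and 28.0, and 43.6 and 43.7. These 2 genes were low in shSRPK1 and at like levels in NT and oeSRPK1, unlike the 7 of the 9 genes that were called in oeSRPK1 against NT.

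Most relatives and partners of the 9 genes passed no test. Over 10 lists of relatives and partners, with the 9 left out, 170 of 220 listed genes were tested. In shSRPK1 against NT, 13 were called higher and 6 lower, which is 7.65% and 3.53% of them beside 5.43% and 3.75% of all tested genes. In oeSRPK1 against NT, 22 were called higher and 16 lower, 12.9% and 9.41% beside 11.2% and 9.45%. These shares lie near those of all tested genes, so the counts are no result about relatives and partners. The medians of the 170 were 0.04 and 0.09 on the log2 scale. Leaving out a library moved these counts by more than 1.5 times: from 0 to 41 higher and 0 to 31 lower in shSRPK1 against NT, and from 1 to 44 higher and 1 to 35 lower in oeSRPK1 against NT. In shSRPK1 against NT the lows of 0 came without NT 1 or NT 2 and the highs without shSRPK1 2. In oeSRPK1 against NT the low of higher calls came without NT 1 and that of lower calls without oeSRPK1 1, and the highs without shSRPK1 1 (44 higher) and without either shSRPK1 library (35 lower).

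**Figure D4:**
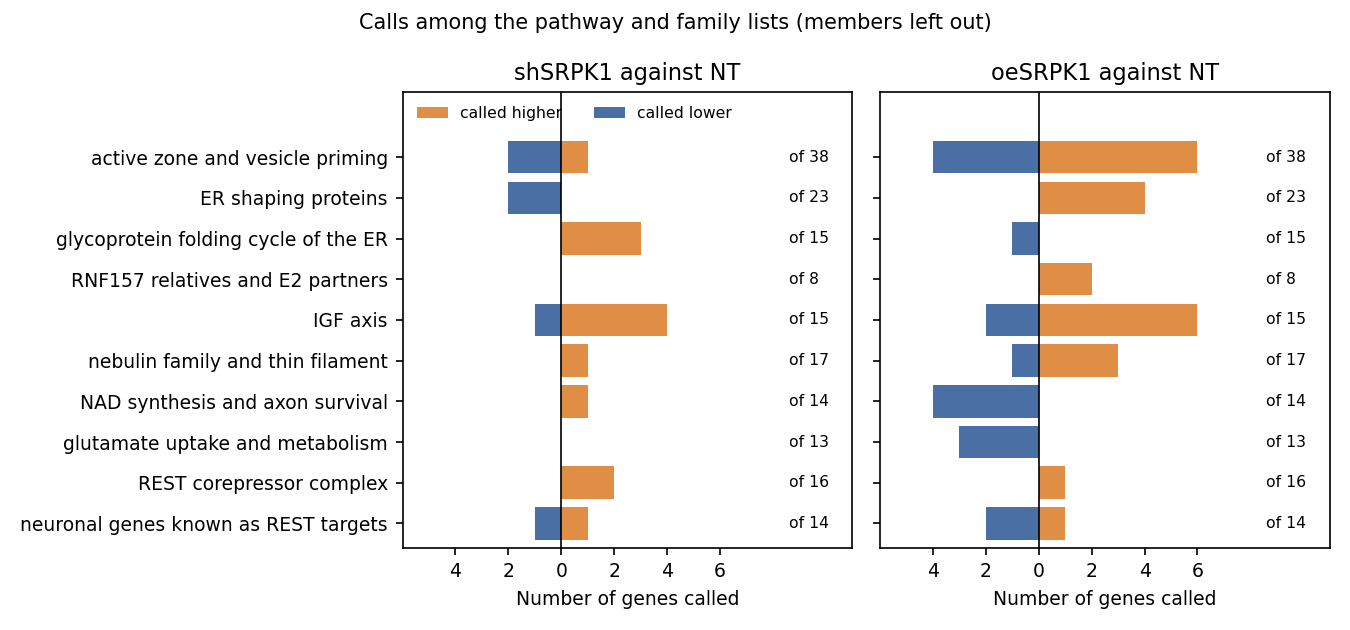
Number of genes called higher (right of 0) and lower (left of 0) by edgeR in each list of relatives and partners, for shSRPK1 against NT and oeSRPK1 against NT, with the number of tested genes at the right. No list has calls for most of its genes in either comparison except the IGF axis with the expression vector, where 8 of 15 were called (6 higher and 2 lower). Of all tested genes, 11.2% were called higher and 9.45% lower there. The counts are a description and no result about a list.

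Among 38 tested genes of the active zone and of vesicle priming, 1 was called higher and 2 lower in shSRPK1, and 6 higher and 4 lower in oeSRPK1 (medians -0.19 and 0.20). Beside the shares of all tested genes (5.43% and 3.75% in shSRPK1, 11.2% and 9.45% in oeSRPK1), these counts, and those of the smaller lists below, are given as a description of the genes named and not as a result about a list. SYT11, a synaptotagmin that does not bind calcium, was low with the hairpin and high with the expression vector, as CADPS was: it had 28.3 and 27.9 CPM (NT), 15 and 12.1 CPM (shSRPK1) and 50.8 and 48.9 CPM (oeSRPK1), and was called in both (log2 -1.05 ± 0.14 and 0.83 ± 0.14, edgeR adjusted p = 0.00887 and 0.00667). The SYT11 call in shSRPK1 was lost in a fit of only NT and shSRPK1 (edgeR adjusted p = 0.0539). SNAP29, a fusion protein of autophagosomes, was lower in shSRPK1 (log2 -0.73 ± 0.13, adjusted p = 0.0177). VAMP1, a vesicle SNARE, went the other way from SYT11 in both, with 0.74 ± 0.17 (0.0363) in shSRPK1 and -1.06 ± 0.19 (0.00820) in oeSRPK1. The partner SNAREs of the plasma membrane parted in oeSRPK1: SNAP25 fell by 1.57 on the log2 scale (adjusted p = 0.00149) and STX1A rose by 1.74 (0.00237). UNC13A, a priming factor, rose by 2.21 (0.00269), from 14 and 21 reads in NT to 157 and 23 in oeSRPK1.

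Of 23 tested ER-shaping genes, 0 were called higher and 2 lower in shSRPK1 by edgeR, with 9 at an unadjusted p under 0.05. In oeSRPK1, 4 were called higher and 0 lower, with 8 at an unadjusted p under 0.05. Of all 14732 tested genes, 4237 in shSRPK1 and 5255 in oeSRPK1 against NT had such an unadjusted p. Counts at an unadjusted p, here and for the lists below, are therefore no result about a list. RTN3 and ATL3, a reticulon and an atlastin of ER tubules, were lower in shSRPK1 (log2 -0.73 ± 0.15 and -0.65 ± 0.13, adjusted p = 0.0253 and 0.0270). In oeSRPK1, TMCC3 (3.58 ± 0.59, 0.00676, from 1 and 6 reads in NT) and RTN2 (0.80 ± 0.20, 0.0274) rose beside REEP5. The ER glycoprotein folding cycle, the setting of CLGN, had 3 of 15 called higher and 0 lower in shSRPK1, with 7 at an unadjusted p under 0.05: PPIB (0.86 ± 0.16, adjusted p = 0.0203), PDIA3 (0.79 ± 0.18, 0.0371) and CALR. In oeSRPK1, 0 were called higher and 1 lower, with 2 at an unadjusted p under 0.05, and that gene was UGGT2, a relative of the enzyme that returns misfolded glycoproteins to the cycle (-0.51 ± 0.12, 0.0246).

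The IGF axis, on which PAPPA2 acts, had 4 of 15 called higher and 1 lower in shSRPK1 and 6 higher and 2 lower in oeSRPK1 (medians 0.40 and 0.15). IGFBP3, a substrate of PAPPA2 and the main carrier of IGF in blood, had 1300 and 1787 CPM (NT), 5450 and 2989 CPM (shSRPK1) and 5150 and 4423 CPM (oeSRPK1), and was called higher with both plasmids (log2 1.45 ± 0.30 and 1.63 ± 0.30, edgeR adjusted p = 0.0286 and 0.0110). STC2, a secreted inhibitor of these proteases, rose in oeSRPK1 (1.82 ± 0.24, 0.00298), from 578 and 584 CPM in NT to 2086 and 2027. IGFBP4 fell there by 1.02 (0.00234) and IGFBP7 rose by 0.63 (0.00744). In shSRPK1, IGFBP2 was higher (0.62 ± 0.11, 0.0203) and INSR, the insulin receptor, lower (-1.16 ± 0.20, 0.0176).

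Around NMNAT2, 1 of 14 tested genes of NAD synthesis and axon survival was called higher and 0 lower in shSRPK1 (NADSYN1, 0.71 ± 0.13, edgeR adjusted p = 0.0215; 7 at an unadjusted p under 0.05). In oeSRPK1, 0 were called higher and 4 lower, with 6 at an unadjusted p under 0.05, among them the NAD kinase NADK (-0.62 ± 0.11, 0.00923), QPRT (-1.14 ± 0.23, 0.0125) and NNMT (-0.95 ± 0.21, 0.0193), while NMNAT2 rose. Around SLC1A1, 0 of 13 genes of glutamate uptake and metabolism were called in shSRPK1, with 5 at an unadjusted p under 0.05. In oeSRPK1 0 were called higher and 3 lower, with 3 at an unadjusted p under 0.05: glutamine synthetase GLUL (-0.90 ± 0.17, 0.0114), GOT2 (-0.58 ± 0.13, 0.0183) and SLC1A3. Of 8 relatives and partners of RNF157, 0 were called in shSRPK1, with 1 at an unadjusted p under 0.05. The ubiquitin-conjugating enzymes UBE2E1 (0.61 ± 0.16, edgeR adjusted p = 0.0306) and UBE2D3 (0.52 ± 0.15, 0.0433) rose in oeSRPK1.

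Of 17 tested genes of the nebulin family and thin filaments, 1 was called higher and 0 lower in shSRPK1, with 4 at an unadjusted p under 0.05, and 3 were called higher and 1 lower in oeSRPK1. TPM1, a tropomyosin, was the gene called in shSRPK1 (0.90 ± 0.16, edgeR adjusted p = 0.0199), and it also rose in oeSRPK1 (0.82 ± 0.16, 0.0131). TMOD3, a widely expressed cap of filament ends, rose there by 0.41 (0.0360) and its relative TMOD2 fell by 0.65 (0.0279). This list includes NEB and NRAP, whose reads went with the muscle signal, and their part in the list's median of 0.37 in oeSRPK1 was not tested.

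REST, which keeps neuronal genes silent in other cells, had 41.0 and 37.1 CPM (NT), 35.5 and 35.5 CPM (shSRPK1) and 54.5 and 44.5 CPM (oeSRPK1). It was not called against NT with either plasmid (edgeR adjusted p = 0.548 and 0.102) although it was called higher in oeSRPK1 than in NT without shSRPK1 1, without shSRPK1 2, in a fit of only both groups and with separate spreads for the groups (0.0183, 0.0206, 0.0176 and 0.0127). Between the plasmid groups it passed narrowly (oeSRPK1 over shSRPK1 1.41-fold, 1.13 to 1.76, adjusted p = 0.0373). That call was lost without NT 1, NT 2, oeSRPK1 1 or oeSRPK1 2 (adjusted p = 0.0946, 0.0930, 0.364 and 0.0661), with the DESeq2 test (0.0644), in a fit of only both groups (0.0877) and with separate spreads (0.0593). Of 16 tested genes of its corepressor complex, 2 were called higher and 0 lower in shSRPK1, with 5 at an unadjusted p under 0.05: RCOR2 (1.24 ± 0.18, 0.0112) and SIN3B (0.55 ± 0.14, 0.0446). In oeSRPK1, 1 was called higher and 0 lower, with 7 at an unadjusted p under 0.05, and that gene was BTRC, a ubiquitin ligase subunit that acts on REST (0.49 ± 0.13, 0.0291). Of 14 tested neuronal genes known as REST targets, 1 was called higher and 1 lower in shSRPK1. KIF5C, a neuronal kinesin, was lower there (-1.70 ± 0.26, 0.0119), with 8.93 and 9.46 CPM (NT), 2.19 and 3.54 CPM (shSRPK1) and 5.80 and 5.17 CPM (oeSRPK1), and CELSR3 was higher (0.55 ± 0.11, 0.0261). In oeSRPK1 SNAP25 and SCG2 (-0.62 ± 0.15, 0.0267) were lower and UNC13A was higher, so these genes had no common direction.

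Calls of the list genes named here depended on the NT and oeSRPK1 libraries. Of 44 such calls against NT, 4 remained without NT 1, 6 without NT 2, 3 without oeSRPK1 1 and 11 without oeSRPK1 2, where the group has 1 library left, and all 44 remained without shSRPK1 1 or without shSRPK1 2. In a fit of only the groups compared 27 remained, and with a replicate block 38. None of the 44 changed its direction under any of these settings. Where edgeR called 0 genes of a list in a direction, DESeq2 and limma-voom also called 0, except 1 gene of the ER folding cycle called higher in oeSRPK1 by both and 1 ER-shaping gene called lower in oeSRPK1 by limma-voom.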

How the data were processed

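The authors deposited raw read counts (whole numbers, 1 per gene id) in 6 tables, 1 for each T98G library. STAR 2.5.3 was the aligner and hg38 the build, after FastQC and Trimmomatic, per the submitters' processing notes. How reads were assigned to genes, with which annotation and strand setting, is not given in the sources used here, so reads of overlapping genes on opposite strands cannot be told apart. Entries that name no gene (reads in no feature 8.13% to 11.1%, ambiguous 3.04% to 3.37%, not unique 12.0% to 13.1%) entered neither library sizes nor tests. Of 60483 ids, 56321 took their symbol from the gene name table and 432 from GENCODE 29.

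Gene counts were tested in R 4.3.3 with edgeR 4.0.16: filterByExpr (minimum count 10, total 15), which left 14732 genes with 99.79% to 99.85% of gene reads, TMM scaling, and a robust quasi-likelihood fit over all 6 libraries, which share 1 spread (biological coefficient of variation 14.5%). Genes were called at a Benjamini-Hochberg adjusted p under 0.05 over all tested genes. CPM uses TMM library sizes, and errors of log2 fold changes are SE. TPM uses GENCODE 29 merged exons. Fold intervals are 95% intervals of the fit, while floors and counting intervals, of reads without molecular identifiers, cover counting error only. The steps were tested on simulated data.

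The 9 genes and the lists were chosen with earlier results of these data known. Besides the 9, the text names SRPK1, REST, relatives of the 9 by level, up to 3 called genes per list and comparison with the smallest adjusted p, and the 5 most similar genes (mean log2 CPM at least 1); other genes are markers or were chosen after their values were seen (NMNAT1's call). Alternatives were DESeq2 1.42.0 and its size factors, upper-quartile scaling, no filter, a stricter filter (CPM of 5 in 2 libraries), limma-voom (limma 3.58.1), a fit of only the groups compared, a replicate block, each library left out in turn, where a lone library is assumed to vary like the others, and, added after seeing the data, limma-voom with a spread per group.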

Additional observations from a re-analysis of the deposited data

How the results depend on the processing

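No result of the 9 genes or of the other named genes reversed under any alternative. The 14 calls of the 9 genes in the 2 comparisons with oeSRPK1 were all kept under DESeq2's size factors, upper-quartile scaling, the DESeq2 test, limma-voom, limma-voom with separate spreads for the groups and a fit of only the groups compared; 13 were kept with no filter, and 12 of 12 with the stricter filter, which removes PAPPA2 and REEP1. Leaving out a library kept 8 (NT 1), 9 (NT 2), 14 (shSRPK1 1), 14 (shSRPK1 2), 1 (oeSRPK1 1) and 10 (oeSRPK1 2). Over these 6 settings the members called ranged from 0 to 5 higher and 0 to 3 lower in oeSRPK1 against NT, and from 1 to 7 higher in oeSRPK1 against shSRPK1. The median log2 difference of the 9 in shSRPK1 against NT ranged from -2.25 to -1.60 with a library left out and was -1.70 with the stricter filter, where 7 genes remain. Of the list genes, with no filter 26 were called higher and 13 lower in shSRPK1 against NT and 24 lower in oeSRPK1 against NT. In a fit of only the groups compared 0 and 0 were called in shSRPK1 against NT, and 46 and 34 in oeSRPK1 against NT, where limma-voom with separate spreads called 45 and 31. Leaving out a library gave 0 to 41 higher and 0 to 31 lower in shSRPK1 against NT, and 1 to 44 and 1 to 35 in oeSRPK1 against NT; apart from the smaller number of libraries, the cause was not tested. Deviations from the group means were compared between libraries with the same number over 14732 genes. They correlated at 0.0104 (NT and shSRPK1), -0.0186 (NT and oeSRPK1) and 0.0235 (shSRPK1 and oeSRPK1). So no shift common to libraries with the same number was seen over all genes. A correlation over all genes cannot show whether such libraries share a culture or preparation, which the labels do not give. A fit with the number as a replicate block kept all 14 calls of the 9 genes (4 higher and 3 lower, and 7 higher and 0 lower), gave a median of -1.93 in shSRPK1 against NT, and called 9 list genes higher and 6 lower in shSRPK1 and 23 higher and 16 lower in oeSRPK1 against NT. Depth limits the scarce genes: in oeSRPK1 2, REEP1 and RNF157 had 4 reads each, and 3 counts stand for 0.776 CPM there.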
